A study of Mus musculus with 96 samples.

Results

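The clones described here are 151 barcodes of the LSK library that held a middling share of the LSK cell pool before transplantation and that came to no large share of any leukaemia. They were chosen by measured values. A barcode of the GFP library, which marks cells that started as LSK, was a member when it held at least 1000 and under 5000 CPM of the LSK pool and stayed under 10000 CPM in every bone marrow and spleen library of mice given LSK cells. CPM is the read share of a barcode, scaled so that all barcodes of a library sum to 1e6. Of 159 LSK clones in that pool range 151 qualified and 8 passed the ceiling in at least 1 library, out of 1331 barcodes of the LSK library and 4675 barcodes in all. The clones are called mid-abundance clones below. Never expanding is a statement about this ceiling only, since some of them rose above their pool share.

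In clonal tracking, a virus carries a short random DNA barcode into the genome of each founder cell, so that the descendants share the barcode and its read share stands for the size of the clone. A transplanted leukaemia is usually rebuilt by a minority of the founder cells, and most barcodes of the inoculum drop out or stay rare. MLL-AF9 is a fusion oncogene that turns haematopoietic progenitors into leukaemia-initiating cells in mice.

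The study set leukaemias of 2 origins against each other in vivo. Lin-, c-Kit+, Sca-1+ (LSK) cells, an immature population that includes stem cells, and granulocyte-monocyte progenitors (GMP) were sorted from the marrow of female C57BL/6 donors aged 6 to 8 weeks. Both were transduced with an MLL-AF9 retrovirus, cultured with IL-3, IL-6 and SCF, and transduced with SPLINTR barcode libraries, so every group carried the oncogene and a barcode. Recipients were labelled Ptprca, an allele name of the CD45 gene used for congenic C57BL/6 mice, or NSG, immunodeficient mice that lack T, B and NK cells. LSK cells alone went into 3 Ptprca mice (mice 1, 2 and 3) and 4 NSG mice (mice 9 to 12). LSK cells mixed with GMP cells went into 4 Ptprca mice (mice 17 to 20) and 4 NSG mice (mice 21 to 24). The age of the recipients, the number of cells injected and the time of harvest are not given in the sources used here. Each origin was 1 transduced pool, so the cells given to all groups came from the same clones. Whether each mouse received every clone is not known, so absence from a mouse need not be loss after transplantation.

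Marrow and spleen of these 15 mice gave 29 libraries of 5239254 to 8499553 reads, with a spleen library only for mouse 24. A clone with 0 reads may hold up to the share of 3 reads, which was 0.353 to 0.573 CPM of all reads. Of the reads of the LSK library alone it was 0.353 to 1.61 CPM, highest in the marrow of mouse 20. Amplified reads that carry no molecular identifier do not stand for separate molecules, so such limits and intervals cover counting error only. Because GMP cells took part of the reads in mixed recipients, where the LSK library held 32.4% to 79.6% of reads, values in mice are given as CPM of the reads of the LSK library alone. On that scale 4 of the 151 clones passed 10000 CPM in 5 libraries, up to 17379.5 CPM, although the deposited CPM stayed under the ceiling. Unless a tissue is named, the value of a mouse is the mean of its marrow and spleen. Of the 29 libraries 3 stood apart, the marrow of mouse 12 and the spleen of mouse 10 with at least 0.1% of reads from the library not given, and the spleen of mouse 18 with at least 1% of reads in barcodes found in no pool. The tables of Ptprca and NSG mice were deposited separately and the labels give no preparation batch, so host and preparation cannot be told apart.

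At the edges of the rule the values ran on without a gap in the pool and with a short one at the ceiling. The members nearest under the ceiling were GFP_Barcode_123081, GFP_Barcode_8263 and GFP_Barcode_33133, whose highest deposited values were 9898, 7469 and 6871 CPM. The clones nearest over it were GFP_Barcode_85168, GFP_Barcode_885 and GFP_Barcode_814, at 11409.7, 15939 and 17901 CPM. Around the lower pool limit, GFP_Barcode_16252 (993 CPM) and GFP_Barcode_26059 (995 CPM) lay just outside and GFP_Barcode_19852 (1009 CPM) and GFP_Barcode_1295 (1016 CPM) just inside. Around the upper limit, GFP_Barcode_10674 (4914 CPM) and GFP_Barcode_31063 (4945 CPM) were members, and GFP_Barcode_26387 (5154 CPM) and GFP_Barcode_15287 (5265 CPM) were not.

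In the LSK pool the mid-abundance clones together held 32.8% of all reads (95% Wilson interval 32.8% to 32.9%, 1926833 of 5871935 reads), with a median of 1738 CPM and a range of 1009 to 4945 CPM. The pool that mixed LSK with GMP cells held the same clones in nearly the same proportions. There they made up 16.9% of all reads and 33.3% of the reads of the LSK library. The log2 ratio of the mixed to the LSK pool had a median of 0.01 and ran from -0.91 to 0.51, and 150 of 151 clones lay within 1.5-fold. The lowest ratio was that of GFP_Barcode_2274, named after its value was seen. In the GMP pool only 5 of the clones were read, with 15 reads in all.

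The level that these barcodes reach where no LSK cells were given was read in 16 libraries of mice given GMP cells alone. Of 2416 values there, 207 (8.57%) were above 0, 5 were at or over 10 CPM and the highest was 32.7 CPM. The 151 clones summed to between 0 and 77.6 CPM per library. A clone was counted as detected in a mouse from 100 CPM of LSK reads. The values in mice given GMP cells alone are CPM of all reads, and each is below 100. In mixed recipients, where the LSK library held as little as 32.4% of reads, the same number of reads gives a higher CPM of LSK reads. There the limit need not lie above the highest of those values.

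Most mid-abundance clones were not detected in most mice, and fewer were detected in NSG than in Ptprca mice. Since the rule caps these values, the counts and shares in this and the next 3 paragraphs are a description without a test. Among Ptprca mice given LSK cells, mouse 1 had 25, mouse 2 had 31 and mouse 3 had 36 of the 151 clones. Among Ptprca mice given the mixture, mice 17, 18, 19 and 20 had 25, 26, 30 and 26. Among NSG mice given LSK cells, mice 9, 10, 11 and 12 had 8, 6, 6 and 6, and among NSG mice given the mixture, mice 21, 22, 23 and 24 had 5, 3, 3 and 4. Every Ptprca mouse lay above every NSG mouse, at 28.4 ± 4.12 (SD, n = 7) against 5.12 ± 1.73 clones (SD, n = 8). Within Ptprca mice the recipients of LSK cells and of the mixture overlapped, while within NSG mice all 4 mixed recipients lay below all 4 recipients of LSK cells alone. The dose of LSK cells in the mixture is not given, so the presence of GMP cells and a lower LSK dose cannot be told apart.

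The summed share of the clones fell from 32.8% of the LSK pool to a few percent or less of the LSK reads in mice. It was 2.44%, 2.46% and 3.77% in Ptprca mice 1, 2 and 3, and 2.59%, 4.95%, 2.14% and 2.99% in mixed recipients 17, 18, 19 and 20. In NSG mice 9, 10, 11 and 12 it was 0.703%, 0.562%, 0.968% and 0.967%, and in mixed recipients 21, 22, 23 and 24 it was 1.10%, 0.918%, 0.0574% and 1.29%. The hosts did not overlap, and mouse 23 was far below the other NSG mice. Without the 4 clones that passed 10000 CPM of LSK reads, the mean share was 2.03% in Ptprca and 0.236% in NSG mice, against 3.05% and 0.821% with them. Relative to the pool given, the sum was 6.73-fold to 15.6-fold lower in Ptprca mice, 33.9-fold to 58.4-fold lower in NSG mice given LSK cells and 25.9-fold to 580-fold lower in NSG mice given the mixture. The 8 clones of the same pool range that passed the ceiling had started at 1.76% of the pool and held 45.4% ± 2.20 (SD, n = 3) in Ptprca and 21.6% ± 4.52 (SD, n = 4) in NSG mice given LSK cells.

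For the single clone in the middle of the ranking the fall from the pool share was much deeper than for the sum. In Ptprca mice 1, 2 and 3 the median level of the clones was 2.31, 1.37 and 4.05 CPM. When clones were ranked instead by their fold below their own pool share, the median was 964-fold, 1518-fold and 443-fold. Folds given below are medians of this kind. In the 4 Ptprca mice given the mixture, and in all NSG mice except mouse 11, the median clone had 0 reads. For the floor, 3 reads were divided by the LSK reads of all libraries of a mouse together. On that floor the median clone was at least 1942-fold to 2258-fold lower in Ptprca mixed recipients. In NSG mice 9, 10 and 12 it was at least 6908-fold to 7259-fold lower. In NSG mixed recipients it was at least 1663-fold to 6217-fold lower. With 3 reads in each library as the floor, the bounds of mice with both tissues would be smaller. These bounds follow the depth of the LSK library and have no order between groups. In mouse 11 the median clone stood at 0.065 CPM, a single read.

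The reads that remained were held by few clones. In the LSK pool the 10 most abundant of the 151 clones held 14.5% of the reads of all 151. In Ptprca mice the 10 leading clones held 60.0% of the mean member reads and in NSG mice 96.5%. In NSG mixed recipients a single clone, GFP_Barcode_123081, held 86.1% of the reads averaged over the 4 mice. Mouse 23 differed, with GFP_Barcode_21639 leading in marrow (57.0% of member reads) and GFP_Barcode_31063 in spleen (57.7%). At or over 1000 CPM there were 5 to 12 of the clones in a Ptprca mouse and 0 to 3 in an NSG mouse. Clones above their own pool share numbered 3 to 6 in a Ptprca mouse and 0 to 2 in an NSG mouse.

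The same clones recurred in several mice more often in some cases than in others. Of the 151 clones 86 (57.0%) were detected in none of the 15 mice, 22 in 1 mouse, 22 in 2 to 4, 17 in 5 to 9, 3 in 10 to 14 and 1, GFP_Barcode_123081, in all 15. Detection in at least 1 Ptprca mouse was seen for 64 clones and in at least 1 NSG mouse for 15, with 14 clones in both. The 1 clone detected in an NSG mouse alone was GFP_Barcode_3822, named after its values were seen, which reached 133 CPM in 1 mouse. A level of 1000 CPM was reached in at least 1 mouse by 25 clones, of which 13 did so in exactly 1 mouse and 4 in at least 5. In all, 12 clones exceeded their pool share in at least 1 mouse and 139 (92.1%) in none. No read was found for 7 clones in any of the 29 libraries, 38 had none in any NSG library and 13 none in any Ptprca library. The NSG count hangs on the marrow of mouse 11, where 91 clones were above 0, with a median of 0.130 CPM. In the marrow of mice 9, 10 and 12 there were 16, 16 and 30. GFP_Barcode_1295 and GFP_Barcode_64, for example, were read in no other NSG library.

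GFP_Barcode_123081 had the highest mean over the 15 mice and was the member closest to the ceiling. It held 4278 CPM of the LSK pool. In Ptprca mice given LSK cells it held 5818, 5097 and 6013 CPM (mice 1, 2 and 3), and with the mixture 1927, 8787, 991 and 3132 CPM (mice 17, 18, 19 and 20). In NSG mice given LSK cells it held 246, 1913, 3884 and 3739 CPM (mice 9 to 12), and with the mixture 8742, 7971, 112 and 12148 CPM (mice 21 to 24). The hosts overlapped over nearly their whole range, with means of 4538 ± 2694 (SD, n = 7) and 4844 ± 4352 CPM (SD, n = 8). Its mean level relative to the pool given was 1.02 in Ptprca and 1.06 in NSG mice, and it exceeded its pool share in 7 of 15 mice. The host difference was 0.77 ± 1.01 (SE) on the scale of log2(CPM + 10), with a limma adjusted p of 0.723.

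GFP_Barcode_102032 was read in all 29 libraries and was at or over 100 CPM in 26 of them. From 1038 CPM of the pool it reached 2371, 1897 and 1718 CPM in Ptprca mice 1, 2 and 3 and 2012, 2132, 763 and 929 CPM in mixed recipients 17 to 20. In NSG mice it held 454, 205, 442 and 249 CPM (mice 9 to 12) and 492.6, 334, 6.01 and 236 CPM (mice 21 to 24). All Ptprca mice lay above all NSG mice. It exceeded its pool share in 5 of 7 Ptprca mice and in 0 of 8 NSG mice. The host difference was 2.82 ± 0.65 (SE) on the log2(CPM + 10) scale, with a limma adjusted p of 0.00971.

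GFP_Barcode_6595, at 1059 CPM of the pool, exceeded its pool share in 6 of 7 Ptprca mice and 2 of 8 NSG mice. Its level was 1375, 704 and 2149 CPM in mice 1, 2 and 3 and 3799, 2178, 1556 and 1946 CPM in mice 17 to 20. In NSG mice it was 1384, 158, 0.981 and 73.9 CPM (mice 9 to 12) and 1078, 30.1, 5.00 and 166 CPM (mice 21 to 24). Mice 9 and 21 reached into the range of the Ptprca mice and the other 6 NSG mice lay below it. GFP_Barcode_52450 ran from 474 to 6321 CPM in Ptprca mice (median 3433) and from 0 to 1830.2 CPM in NSG mice (median 69.5). GFP_Barcode_21639 ran from 332 to 2309 CPM in Ptprca mice (median 851) and from 0.138 to 354 CPM in NSG mice (median 58.6). Both overlapped between hosts, and their host differences were 3.83 ± 0.97 (SE, adjusted p = 0.0170) and 4.21 ± 0.66 (SE, adjusted p = 0.000825) on the log2(CPM + 10) scale in limma.

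Other leading clones owed their mean to 1 or 2 mice. GFP_Barcode_37584 held 7389.5 CPM in mouse 18, from 14678 CPM in its marrow and 101 CPM in its spleen. It held 0.169 to 69.6 CPM in the other 6 Ptprca mice and at most 1.70 CPM in NSG mice. GFP_Barcode_33133 held 8847 CPM in mouse 18 and 3443 CPM in mouse 9, with medians of 382 CPM in Ptprca and 1.32 CPM in NSG mice. GFP_Barcode_8263 held 3828 CPM in mouse 11, 395 CPM in mouse 1 and at most 188 CPM in the other 13 mice. GFP_Barcode_31063, the most abundant member in the pool at 4945 CPM, held 2057 CPM in mouse 18, 201 CPM in mouse 23 and at most 55.7 CPM elsewhere. The host differences of these 4 clones were 2.72 ± 1.07, 3.38 ± 1.27, 1.05 ± 1.37 and 0.94 ± 1.19 (SE) on the log2(CPM + 10) scale, with limma adjusted p of 0.117, 0.103, 0.723 and 0.704. GFP_Barcode_12669 was uneven in both hosts, from 32.0 to 2929.8 CPM in Ptprca (median 318) and from 0 to 3209 CPM in NSG mice (median 295).

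The question of the host comparison was whether single clones kept a larger share in one recipient strain. Of the 151 mid-abundance clones 31 (20.5%) were called higher in Ptprca than in NSG mice by limma at an adjusted p under 0.05, against 13.4% of the 679 LSK clones tested, and 0 were called higher in NSG mice, against 0.442%; when the values of every mouse were centred on a median, which shifted the difference by 5.16 on the log2 scale, 0 were called higher and 123 lower in Ptprca mice. That median was taken over the 107 clones with a mean of at least 100 CPM, so it was itself higher in Ptprca than in NSG mice by that shift. Without centring, 135 of 151 differences pointed to Ptprca and 61 had an unadjusted p under 0.05 in that direction, against 0 towards NSG. Such counts were not taken over all tested clones, so they do not set the members apart. Clones with no read in any fitted library could not be called, and they were rarer among the members than among all tested clones. Of fitted clones, 31 of 144 members and 91 of 487 tested clones were called higher in Ptprca mice. These shares lie closer together than those over all clones. The median log2 difference was 0.50 over the members and 0.06 over all tested clones. The edgeR quasi-likelihood test on recovered reads called 32 members higher in Ptprca mice, 18 of them shared with limma. The ceiling was set on these same libraries, on deposited CPM. On CPM of LSK reads it was looser in mixed recipients, the more so the less of the reads the LSK library held. That share was 32.4% to 50.1% in Ptprca and 43.9% to 79.6% in NSG mixed recipients. The ceiling was thus mostly looser in Ptprca mixed recipients on the tested scale. With the 8 clones over the ceiling added, 37 of 159 clones of the pool range were called higher in Ptprca and 0 in NSG mice. Without the 3 libraries that stood apart, 29 members were called, all among the 31.

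The share of members called was higher in the higher bands of pool abundance; the difference between bands was not tested. Among the members 7 of 60 clones (11.7%) from 1000 to under 1500 CPM, 10 of 48 (20.8%) from 1500 to under 2500 CPM and 14 of 43 (32.6%) from 2500 to under 5000 CPM of the pool were called higher in Ptprca mice. Outside the members, 22 of 40 clones at or over 5000 CPM and under the ceiling were called, and 27 of 469 clones from 100 to under 1000 CPM. Detection in Ptprca mice followed the same order, at 13.1% ± 2.02, 17.6% ± 6.46 and 28.2% ± 4.12 of the members in the 3 bands (SD, n = 7 mice). In NSG mice it was 3.12% ± 1.39, 3.12% ± 2.23 and 4.07% ± 1.64 (SD, n = 8 mice), with 5 clones ever detected in each band. The bands share the same mice, so these SDs do not measure the spread of a difference between bands. Over the 151 clones the Spearman correlation of pool share with the mean level was 0.25 in Ptprca and 0.32 in NSG mice, and that between the hosts' mean levels was 0.76. The points of these correlations share pools and libraries, and they are given as a description.

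The 31 called clones differed by 0.16 to 5.82 on the log2(CPM + 10) scale (median 3.83), with adjusted p from 1.64e-06 to 0.0384. In 26 of them the Ptprca mean was over 100 CPM and in 24 the NSG mean was under 10 CPM. Reads were present in all 14 Ptprca libraries for 21 of them. In 15 of the called clones every Ptprca mouse lay above every NSG mouse. Among all members this held for 19 clones, against 6.92% of tested clones with the never-read ones included, and the reverse for 0. The smallest difference, 0.16, was that of GFP_Barcode_46911, whose means were 1.14 and 0.00813 CPM, both below the highest value found in mice given no LSK cells. It was named after its values were seen.

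GFP_Barcode_414 had the smallest p of the host comparison and started at 4282 CPM of the pool. It held 45.6, 127 and 67.2 CPM in Ptprca mice 1, 2 and 3 and 378, 420.4, 248 and 852 CPM in mixed recipients 17 to 20. In NSG mice it had 0, 0, 0 and 5.70 CPM (mice 9 to 12) and 0.25, 1.52, 0 and 0 CPM (mice 21 to 24). The hosts did not overlap, and the Ptprca mixed recipients all lay above the Ptprca recipients of LSK cells alone. The host difference was 4.15 ± 0.31 (SE) on the log2(CPM + 10) scale, adjusted p = 1.64e-06 in limma. Even in Ptprca mice this clone stayed below its pool share, as did the next 4 clones by p.

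GFP_Barcode_4307, at 1298 CPM of the pool, held 549, 172 and 65.1 CPM in mice 1, 2 and 3, 591, 633, 105 and 875 CPM in mice 17 to 20, and at most 4.56 CPM in any NSG mouse. Its difference was 4.79 ± 0.50 (SE), adjusted p = 5.16e-05. GFP_Barcode_148455 ran from 55.5 to 779.6 CPM in Ptprca mice (median 347) and reached 3.11 CPM in NSG mice. GFP_Barcode_16740 ran from 52.0 to 795 CPM (median 175) and reached 0.26 CPM in NSG mice, and GFP_Barcode_14590 ran from 46.2 to 988 CPM (median 173) and reached 0.874 CPM in NSG mice. The hosts did not overlap for any of these clones. Their differences were 4.87 ± 0.54, 4.25 ± 0.48 and 4.47 ± 0.52 (SE), with adjusted p of 9.05e-05, 9.38e-05 and 0.000102 in limma.

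GFP_Barcode_2709 had the largest difference of the called clones. From 4775 CPM of the pool it held 1135, 971 and 1349 CPM in mice 1, 2 and 3 and 92.1, 2237, 966 and 4909.6 CPM in mice 17 to 20. NSG mice held 45.3, 2.96, 0 and 88.1 CPM (mice 9 to 12) and 0.749, 14.1, 0 and 0 CPM (mice 21 to 24). The lowest Ptprca mouse was just above the highest NSG mouse. The difference was 5.82 ± 0.78 (SE) on the log2(CPM + 10) scale, adjusted p = 0.000259 in limma. GFP_Barcode_15551 ran from 1.69 to 2063 CPM in Ptprca mice (median 799) and from 0 to 13.3 CPM in NSG mice, with a difference of 5.28 ± 0.86 (SE), adjusted p = 0.00112.

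In Ptprca mice the mid-abundance clones held a larger share of the marrow than of the spleen in every animal. The marrow of mice 1, 2 and 3 held 3.80%, 3.82% and 6.36% in these clones and the spleen 1.09%, 1.10% and 1.17%. The marrow of mixed recipients 17 to 20 held 3.85%, 8.64%, 3.43% and 4.66% and the spleen 1.33%, 1.26%, 0.854% and 1.33%. The ratio of marrow to spleen was 2.91 to 6.84 over the 7 Ptprca mice. Of NSG mice with both tissues, mice 10, 11, 12, 21, 22 and 23 had ratios of 2.53, 2.27, 5.39, 3.81, 3.46 and 1.38, and mouse 9 had 0.683. The ranges of the hosts overlapped.

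The number of clones detected also differed by tissue in Ptprca mice. There 26 to 43 clones (median 30) were at or over 100 CPM in marrow and 11 to 16 (median 14) in spleen, with no overlap. In NSG mice 3 to 8 clones (median 5) were detected in marrow and 2 to 9 (median 4.5) in spleen. Among clones detected in either tissue of a mouse, 78.8% to 93.2% were higher in marrow in Ptprca mice and 33.3% to 71.4% in NSG mice. At 1 read or more, marrow held more clones than spleen in Ptprca mice 1, 2 and 3, at 119 against 79, 82 against 71 and 90 against 79. In mixed recipients 17 to 20 the counts were 60 against 60, 59 against 52, 54 against 56 and 62 against 64, with no common direction.

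Single clones rarely passed the test of tissue. With the difference taken within each of 14 mice, limma called 2 members higher in marrow, GFP_Barcode_4307 and GFP_Barcode_414, against 0.884% of tested clones, and 0 higher in spleen, against 0.295%. At an unadjusted p under 0.05 there were 14 and 0, and 115 of 151 differences pointed to marrow. These counts were not taken over all tested clones and do not set the members apart. The marrow levels of GFP_Barcode_4307 were 1053, 328 and 105 CPM in mice 1, 2 and 3 and 1099, 1164, 189.8 and 1716 CPM in mice 17 to 20, beside spleen levels of 44.6, 16.995, 25.2, 82.7, 101, 19.6 and 35.1 CPM. Marrow was above spleen in each of the 7 mice. The marrow levels of GFP_Barcode_414 were 50.3, 203, 82.5, 739, 819.7, 453 and 1700.1 CPM in the same order and its spleen levels 40.9, 50.3, 51.9, 17.7, 21.1, 42.6 and 3.48 CPM. In mouse 1 the tissues were close, and in mixed recipients the marrow was far above the spleen. Averaged over the 4 groups the differences were 1.64 ± 0.26 and 1.48 ± 0.28 (SE) on the log2(CPM + 10) scale, adjusted p = 0.00636 and 0.0212. Neither call held without the 3 libraries that stood apart, which takes mice 10, 12 and 18 out of the fit (adjusted p = 0.0892 and 0.255). The call of GFP_Barcode_414 was also lost without mouse 2, 11, 12, 21, 22 or 23, at adjusted p of 0.0520 to 0.0687.

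In the test of whether the marrow difference differed between hosts, the same 2 clones were called towards Ptprca mice, against 0.884% of tested clones, and 0 towards NSG mice, against 0.147%. Both clones were near 0 in both tissues of NSG mice, at up to 11.4 CPM, where a tissue difference could hardly appear on this scale. The calls therefore add nothing to the marrow difference in Ptprca mice and do not compare tissue preference between hosts. The differences between hosts were 3.69 ± 0.51 for GFP_Barcode_4307 and 2.83 ± 0.56 (SE) for GFP_Barcode_414 on the log2(CPM + 10) scale, with limma adjusted p of 0.00293 and 0.0400. At an unadjusted p under 0.05 there were 16 clones greater in Ptprca and 0 in NSG mice, a count not taken over all tested clones. Without the 3 libraries that stood apart the adjusted p were 0.0940 and 0.221. Of the mice in this fit, GFP_Barcode_414 was called only when mouse 1, 19 or 20 was left out. Without any one of the other 11 mice its adjusted p was 0.0519 to 0.121. Mouse 24, which has no marrow library, was not part of the fit, so leaving it out repeats the main result.

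No member was called for the presence of GMP cells in either direction, against 0.295% of tested clones, and the lowest adjusted p in limma was 0.0545. The ceiling was set on deposited CPM of these same libraries, so on CPM of LSK reads it was looser in mixed recipients. Members reached up to 17379.5 CPM in a mixed recipient and up to 9902 CPM in a recipient of LSK cells alone. The rule thus capped the compared values unequally. At an unadjusted p under 0.05 there were 11 clones lower and 1 higher with GMP cells, and 110 of 151 differences pointed to lower. The clone with the lowest p, GFP_Barcode_148945, named after its values were seen, held 654 ± 175 CPM in Ptprca mice given LSK cells (SD, n = 3) and 27.7 ± 54.3 CPM with the mixture (SD, n = 4). In NSG mice it held 7.85 ± 14.9 and 0.255 ± 0.511 CPM (SD, n = 4 each). Its difference was -2.79 ± 0.56 (SE) on the log2(CPM + 10) scale. The edgeR test called 1 clone lower with GMP cells, GFP_Barcode_8263, for which mouse 11 alone among the NSG recipients of LSK cells was above 0. Whether the effect of GMP cells differed between hosts was called for 0 members, against 0.295% of tested clones, with 1 and 11 at an unadjusted p under 0.05 in the 2 directions and 0 calls by edgeR with TMM scaling. Counts by direction and by unadjusted p were not taken over all tested clones, so they do not set the members apart. Leaving out mouse 1, 2 or 3 gave 5, 2 or 4 clones called lower with GMP cells, and leaving out mouse 20 or 23 gave 1 each.

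Detection among LSK clones of other pool sizes is given here without a test. In Ptprca mice given LSK cells 20.3% ± 3.65 of the 151 clones were detected, 50.0% ± 9.01 of the 40 clones at or over 5000 CPM and under the ceiling, and 8.03% ± 0.961 of the 469 clones from 100 to under 1000 CPM (SD, n = 3 mice), the last without a ceiling. In NSG mice given LSK cells the values were 4.30% ± 0.662, 10.6% ± 4.27 and 3.36% ± 0.726 (SD, n = 4 mice). In Ptprca mixed recipients they were 17.7% ± 1.47, 44.4% ± 5.15 and 6.93% ± 1.42, and in NSG mixed recipients 2.48% ± 0.634, 5% ± 4.08 and 2.56% ± 0.461 (SD, n = 4 mice each). The mean of the members lay between those of the other sets in 3 of the 4 groups. In NSG mixed recipients it was the lowest, at 2.48% beside 2.56% for the 469 clones. The sets share the same mice, so the SDs do not measure the spread of that difference. The summed share of the 40 more abundant clones fell from 33.1% of the pool to 2.76% ± 0.251 in Ptprca and 0.288% ± 0.113 in NSG mice given LSK cells, beside 2.89% ± 0.759 and 0.800% ± 0.202 for the 151 clones.

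A large start in the pool did not go with detection in every case. GFP_Barcode_28689, the third most abundant member in the pool at 4899 CPM, was read in 2 of 29 libraries at up to 0.323 CPM. GFP_Barcode_10674, at 4914 CPM, held 52.0, 93.1 and 30.9 CPM in mice 1, 2 and 3, 17.5, 173, 167 and 79.7 CPM in mice 17 to 20, and at most 15.2 CPM in NSG mice, a host difference of 2.67 ± 0.44 (SE, adjusted p = 0.00112 in limma). At the lower end of the pool range, GFP_Barcode_1295 was read in 1 library, GFP_Barcode_64 reached 229.9 CPM in mouse 3 and GFP_Barcode_19852 reached 823 CPM in mouse 18 and 199 CPM in mouse 3. Among the 7 clones with no read in any mouse library, the most abundant in the pool were GFP_Barcode_59927 (2499 CPM), GFP_Barcode_12702 (1662 CPM) and GFP_Barcode_32831 (1396 CPM).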

How the data were processed

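Barcodes were amplified from genomic DNA of bone marrow and spleen and counted by sequencing. The molecule is labelled genomic DNA, while the labels' extraction protocol describes droplets, and this was not resolved. The authors deposited 1 table per host, in CPM (each column sums to 1e6), after filtering barcodes and collapsing PCR duplicates, per the names of the deposited tables. Whether duplicates were summed or averaged, and the filters, are not given in the sources used here. Bowtie 1.2.2 and R 3.6 were used, per the submitters' processing notes. A barcode missing from a table was taken as 0. Dividing CPM by the value of a single read gave whole reads for 100% of values above 0, with a tolerance of 0.01 of a read.

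Values in mice were rescaled to the reads of the LSK (GFP) library and averaged over marrow and spleen, with the mouse as the unit of replication. Whether mice of a group were transplanted together is not stated. Clones with at least 100 CPM in the LSK pool (679) were tested with limma 3.58.1 in R 4.3.3 (lmFit, eBayes with trend, two-sided) on log2(CPM + 10) with means of the 4 groups, and p-values were adjusted by Benjamini-Hochberg over all 679. Clones with no read in any fitted library (192 of 679, 7 of 151 members) could not be fitted and were kept in the adjustment as not called. A fold on this scale understates the change of low clones. Marrow and spleen were paired within the mouse, because they come from the same animal. The host and tissue fits were run on simulated data in which every clone was given a base level above 0. In NSG mice a mean of 114.75 of the 151 members was at 0. That check therefore cannot tell how the tests perform for clones at 0 in most mice. An alternative was the edgeR 4.0.16 quasi-likelihood test on the recovered reads, which called 32 members higher in Ptprca mice. Other alternatives changed the pseudocount, the clones tested, the ceiling, the scaling, the tissue, the mice and the libraries used.

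Named clones were the 10 members with the highest mean over mice, up to 5 called per contrast and direction, the 5 detected in most libraries, the extremes of pool share, the clones nearest the limits of the rule, and the most abundant of those never read. The members, the tests and these rules were chosen with earlier results of these data known.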

Additional observations from a re-analysis of the deposited data

Results flagged for a closer look

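Within groups of 4 mice, 36 sets of values were searched for a mouse far from the others, and 8 had one; chance flags about 1 in 20 such groups. Of NSG mice given LSK cells, mouse 9 had the most clones detected, 8 against 6 in each of the others. In the same group GFP_Barcode_21639 was high in mouse 10 (354 CPM), GFP_Barcode_37584 in mouse 11 (1.70 CPM) and GFP_Barcode_15551 in mouse 11 (4.94 CPM). The last pair of values lies within the range found in mice given no LSK cells. Of NSG mixed recipients, mouse 23 was low for GFP_Barcode_123081 (112 CPM) and high for GFP_Barcode_21639 (194 CPM). Mouse 21 was high for GFP_Barcode_33133 (1.12 CPM) and mouse 22 for GFP_Barcode_2709 (14.1 CPM). The values of 1.12 and 14.1 CPM also lie within the range found in mice given no LSK cells.

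The difference between marrow and spleen was called as differing between hosts by limma for GFP_Barcode_414 (2.83, adjusted p = 0.0400) and GFP_Barcode_4307 (3.69, adjusted p = 0.00293), in log2(CPM + 10). Both clones were at or near 0 in both tissues of NSG mice, at most 11.4 CPM, so a difference there could hardly appear and the calls do not compare tissue preference between hosts. Over its 18 alternatives the adjusted p ran from 0.0106 to 0.229 for GFP_Barcode_414 and from 0.00149 to 0.0940 for GFP_Barcode_4307. Among them the fit without mouse 24 repeats the main fit, since that mouse has no marrow library.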

How the results depend on the processing

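The count of members called higher in Ptprca mice was 31 and moved to 53 with a pseudocount of 1 CPM, 56 with only clones from 1000 CPM of the pool tested, 68 in edgeR without TMM, 18 in LSK recipients alone, 10 in mixed recipients alone and 0 with centring on the median clone, where 123 were lower. The calls at 1 CPM and at the 1000 CPM minimum held all 31; edgeR without TMM shared 24. Leaving out each mouse gave 28 to 41. Under centring the 5 clones named for the host comparison turned to -1.01 (GFP_Barcode_414), -0.37 (GFP_Barcode_4307), -0.28 (GFP_Barcode_148455), -0.90 (GFP_Barcode_16740) and -0.69 (GFP_Barcode_14590), by the construction of that scale; each was called under its other 31 alternatives.

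For GMP cells, 1 member was lower with a pseudocount of 100 CPM, the 1000 CPM pool minimum, a mean minimum of 10 or 100 CPM, no trend, and edgeR with and without TMM, 3 with CPM as deposited, and 0 to 5 over left-out mice. Dividing by the pool given called 32 lower and 16 higher. By construction this shifts the difference of each clone by its ratio between the mixed and the LSK pool. That shift is a fixed value and adds no spread to the test. A clone near 0 in every mouse can thus be called on its pool ratio alone, and these counts cannot be read as an effect of GMP cells. The host difference in this effect had 1 lower call at a pseudocount of 100 CPM, 1 higher in edgeR without TMM and 0 to 4 lower calls over left-out mice.

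Higher in marrow were 0 members with a pseudocount of 1 CPM, without the libraries that stood apart or in NSG mice alone, 1 in Ptprca mice alone, 5 with the 1000 CPM pool minimum or a mean minimum of 100 CPM, and 1 to 3 over left-out mice (1 without mouse 2, 11, 12, 21 or 22). With no replicate block, marrow and spleen as unpaired samples gave 2, as in the paired fit. GFP_Barcode_4307 was at -0.21 in NSG mice alone. The host difference in tissue gave 1 with a pseudocount of 1 CPM, 0 without the libraries that stood apart and 1 to 3 over left-out mice. In both paired tissue fits, leaving out mouse 24 repeats the main fit. For the difference between hosts in the tissue effect and in the GMP effect, the fits without libraries that stood apart and without each mouse were added after seeing the data, as were the edgeR fits of the latter.

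Detected clones per Ptprca mouse (28.4) became 23.7 with a ceiling of 5000 CPM, 14.3 in spleen alone, and 82.6, 52.7 and 7.57 from 1 read, 10 CPM and 1000 CPM, and per NSG mouse (5.12) 2.625 with the lower ceiling and 36.25, 11 and 1.625 from the same levels. Mouse 11 weighs on the NSG mean from 1 read, with 58 clones at 0 against 109 to 140 in the other NSG mice. The summed share in Ptprca mice (3.05%) became 1.86% with a ceiling of 5000 CPM and 4.29% with a higher ceiling, 2.03% with the ceiling on LSK reads, 4.94% in marrow and 1.16% in spleen. In NSG mice (0.821%) it became 0.114% with the lower ceiling and 0.236% with the ceiling on LSK reads. The median log2 fold over the pool, with 0 set to a fraction of a read, was -11.89 in Ptprca and -14.74 in NSG mice, and -6.89 and -7.35 on log2(CPM + 10).

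The precision is limited by 1 pool per origin and by 3 or 4 mice per group. Values up to 32.7 CPM of all reads also occurred in mice given no LSK cells.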
